A study of Mus musculus with 4 samples.

Results

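Cxcl12 (also called SDF-1) is a secreted CXC chemokine that mesenchymal and stromal cells release. Its signalling receptor Cxcr4 is a G protein-coupled receptor through which Cxcl12 guides the migration of muscle precursors, endothelial cells and blood cells. Ackr3, listed in the count files under its older symbol *Cxcr7*, binds the same ligand, recruits arrestin in place of G proteins and carries the ligand into the cell for degradation, so that it shapes how much Cxcl12 remains outside. These 3 genes, the ligand and both receptors, were described among the 23284 gene symbols of the files, and all 3 passed the filter on low counts that left 15645 genes to test.

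RNA was sequenced from GFP+ live cells sorted by FACS from the limbs of C57BL/6J embryos at E13.5, and the comparison asks which genes depend on Osr1 in these muscle connective tissue cells. The *Osr1* GCE allele is a knock-in of eGFP, an IRES and CreERt2 at the *Osr1* locus. There were 2 samples from *Osr1* GCE/+ (heterozygous) embryos and 2 from *Osr1* GCE/GCE (homozygous) embryos. All 4 samples carried the GCE allele, the controls therefore had a single intact copy of *Osr1*, no wild-type cells were compared, and in both genotypes the sort depended on GFP expressed from the altered locus. Counts per sample summed to between 52121596 and 61402140. Values are given as CPM (counts scaled to a common library size with TMM factors), or as CPM per kb of exon where genes are compared with each other. The p-values of edgeR combine the spread between these 4 samples within genotypes (2 degrees of freedom) with the spread shared across genes (6.381).

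*Osr1* itself had 81.9 and 79.1 CPM (GCE/+) against 11.9 and 13.9 CPM (GCE/GCE), as the labels require. Of 13 mesenchymal markers, *Pdgfra* had 833 to 977 CPM and *Prrx1* 438 to 499 CPM over the 4 samples. *Xist*, the RNA of the inactive X chromosome, reached 1142 CPM in GCE/GCE replicate 1 but no more than 2.63 CPM elsewhere, so that 1 embryo alone carried the RNA of an inactive X. Across 15471 genes with a known exon length, the log2 fold change rose with length (Spearman's rho 0.261, across genes, which are not independent replicates).

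The stretch just upstream of each gene is shown because Osr1 is a transcription factor and because *Cxcl12*, unlike its receptors, passed the test. The sequences are the 250 bases before the RefSeq start in GRCm38.p6, 5′ to 3′ on the strand of the gene. They lie at chr6:117168285-117168534 (plus strand) for *Cxcl12*, chr1:128592300-128592549 (minus strand) for *Cxcr4* and chr1:90203730-90203979 (plus strand) for *Ackr3*. Capitals mark GC boxes (GGGCGG) and TATA boxes (TATAAA), on either strand.
Cxcl12: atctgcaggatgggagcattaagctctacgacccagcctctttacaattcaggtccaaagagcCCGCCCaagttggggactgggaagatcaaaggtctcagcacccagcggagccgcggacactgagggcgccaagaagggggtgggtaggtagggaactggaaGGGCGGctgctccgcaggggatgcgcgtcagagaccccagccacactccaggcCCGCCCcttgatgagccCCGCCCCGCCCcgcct
Cxcr4: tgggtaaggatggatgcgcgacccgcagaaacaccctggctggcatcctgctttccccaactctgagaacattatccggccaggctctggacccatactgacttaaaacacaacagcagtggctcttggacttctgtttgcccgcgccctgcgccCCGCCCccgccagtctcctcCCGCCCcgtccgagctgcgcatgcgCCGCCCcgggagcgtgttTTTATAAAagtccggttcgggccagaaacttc
Ackr3: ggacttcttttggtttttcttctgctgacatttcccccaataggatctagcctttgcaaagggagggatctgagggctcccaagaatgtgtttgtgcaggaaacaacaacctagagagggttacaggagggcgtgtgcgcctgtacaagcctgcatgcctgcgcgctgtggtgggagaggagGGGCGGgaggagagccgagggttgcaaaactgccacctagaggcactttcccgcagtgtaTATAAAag
The *Cxcl12* stretch held 5 GC boxes, of which the last pair overlap, and no TATA box, while that of *Cxcr4* held 3 GC boxes and 2 overlapping matches to the TATA box, and that of *Ackr3* held 1 of each. Of all 32851 windows of this length, 32.7% held a GC box and 12.4% a TATA box. The octamer GCTACTGT, a sequence that Osr proteins are known to prefer, was in none of the 3 stretches and in 0.749% of all windows, counting both strands. A match or its lack in a window of this size is a description of the letters and says nothing on binding.

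*Cxcl12* was lower in GCE/GCE cells. It had 32854 and 31483 counts in GCE/+ replicates 1 and 2, or 539.6 and 602 CPM, and 24009 and 25715 counts in GCE/GCE replicates 1 and 2, or 414 and 420.1 CPM. The groups did not overlap, with GCE/GCE the lower, which held for 19.1% of all genes tested. The group means were 571 ± 44.2 and 417 ± 4.6 CPM (SD, n = 2 each), and the difference of 154 CPM between them compares with 62.5 CPM between the GCE/+ samples and 6.5 CPM between the GCE/GCE samples. The log2 fold change was -0.45 (SE 0.10, 95% interval -0.67 to -0.23, Benjamini-Hochberg adjusted p = 0.0852 by edgeR). The level in GCE/GCE cells was thus 73.0% of that in GCE/+ cells, with an interval from 62.7% to 85.0%.

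**Figure D1:**
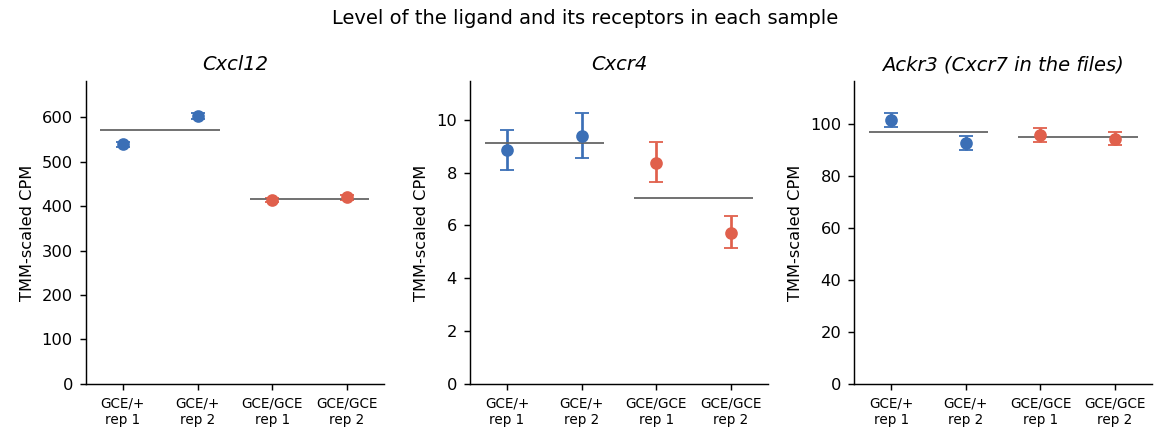
CPM of *Cxcl12*, *Cxcr4* and *Ackr3* in each sample, with each vertical axis starting at 0; bars are exact 95% Poisson intervals of the counts and grey lines are group means. *Cxcl12* was at 539.6 and 602 CPM in GCE/+ against 414 and 420.1 CPM in GCE/GCE, *Cxcr4* was low in GCE/GCE replicate 2, and the *Ackr3* samples overlapped.

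At the study's adjusted p threshold of 0.1, *Cxcl12* was the only member of the 3 to pass. In the same test 1.82% of all genes passed in either direction (285 of 15645), and 0.927% were lower in GCE/GCE cells. Among these 145 lower genes *Cxcl12* had the highest mean CPM and the largest loss in CPM, which both scale with transcript length, but by size of the log2 fold change it ranked 143. Per kb of exon its loss of 21.5 CPM ranked 9, after genes such as *Ccl2*, *Apoe* and *Ccl4*. Of the 237 genes with a mean CPM at least as high as its own, 494 CPM, edgeR passed no other, whereas DESeq2 passed 8 with *Cxcl12* included. The smallest p that an exact two-sided permutation test allows with 2 samples against 2 is 0.333, so the call rests on the model of the counts, which includes the spread shared across genes. It was lost when genes of low count were kept in the test (log2 fold change -0.46, adjusted p = 0.141) and when GCE/GCE replicate 1 (-0.45, adjusted p = 0.14) or GCE/GCE replicate 2 (-0.47, adjusted p = 0.172) was left out, while DESeq2 gave -0.45 with an adjusted p of 0.000738 (the others being edgeR values, all adjusted by Benjamini-Hochberg).

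*Cxcr4* was a gene of low count. It had 538 and 490 counts in GCE/+ cells, or 8.84 and 9.37 CPM, and 486 and 350 counts in GCE/GCE cells, or 8.37 and 5.72 CPM. GCE/GCE replicate 2 stood below the others, with a 95% Poisson interval of 5.13 to 6.35 CPM that covers counting error only. Both GCE/GCE values were below both GCE/+ values, as for 19.1% of all genes. The interval of GCE/GCE replicate 1, 7.64 to 9.15 CPM, overlapped those of both GCE/+ samples, which ran from 8.10 to 9.61 and from 8.56 to 10.2 CPM. The log2 fold change was -0.37 (SE 0.19, 95% interval -0.81 to 0.07, Benjamini-Hochberg adjusted p = 0.602 by edgeR), which allows a GCE/GCE level between 57.2% and 105% of that in GCE/+ cells.

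The *Cxcr4* value depended on which GCE/GCE sample was left out. Without GCE/GCE replicate 1, the embryo with high *Xist*, the log2 fold change was -0.68, and without GCE/GCE replicate 2 it was -0.12. In each of these fits the lone GCE/GCE sample was assumed to vary like the GCE/+ samples, so only the size of the change is given. Among the 1680 genes with a mean CPM within 1.5 times that of *Cxcr4* (8.07 CPM), 55 passed the threshold, beside 1.82% of all genes in either direction. The smallest log2 change among these 55 was 0.64 in size. A change of the size seen in *Cxcl12* passed in none of these genes of low count. The part of its low level in the *Cxcr4* result was not tested.

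*Ackr3* had 6183 and 4843 counts in GCE/+ cells, or 101.5 and 92.6 CPM, and 5561 and 5779 counts in GCE/GCE cells, or 95.8 and 94.4 CPM. Both GCE/GCE samples lay between the GCE/+ samples. The log2 fold change was -0.03 (SE 0.08, 95% interval -0.22 to 0.16, Benjamini-Hochberg adjusted p = 0.969 by edgeR). The level in GCE/GCE cells was 98.0% of that in GCE/+ cells with an interval from 85.8% to 112%, and the lower end of this interval lies above the 73.0% found for *Cxcl12*. Whether the changes of the 3 members differ from each other was not tested.

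**Figure D2:**
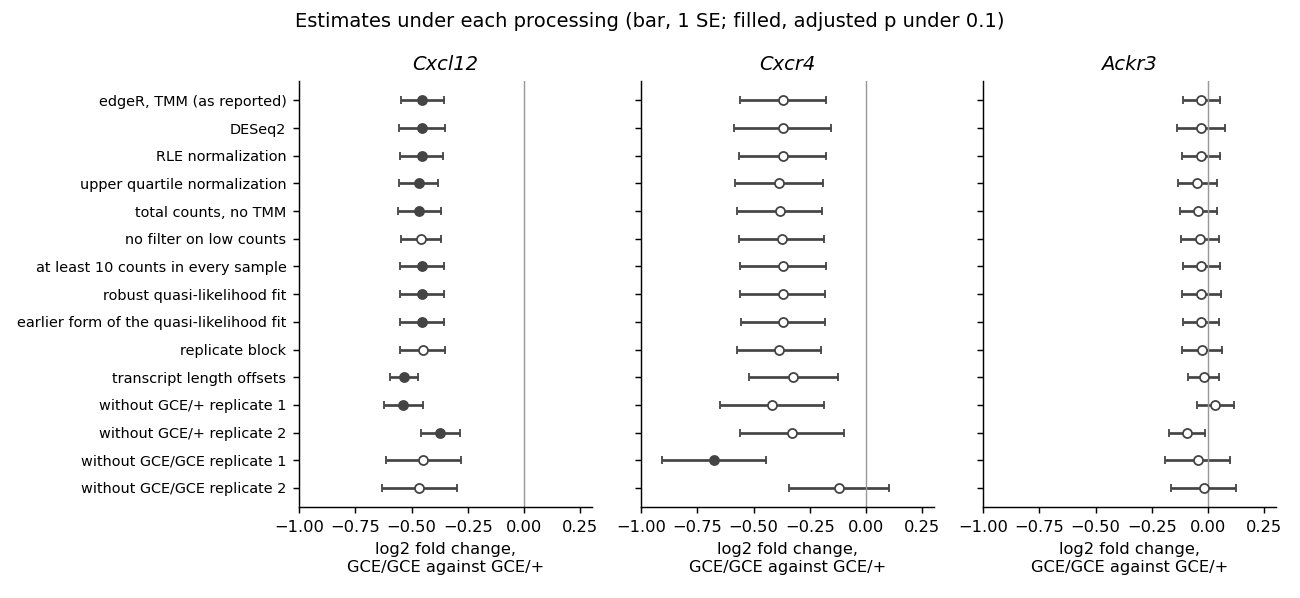
Log2 fold change of each member (GCE/GCE against GCE/+; bar, 1 SE) under each processing, with filled points where the adjusted p was under 0.1. *Cxcl12* stayed between -0.54 and -0.37, *Cxcr4* ranged from -0.68 to -0.12 depending on which GCE/GCE sample was left out, and *Ackr3* stayed between -0.095 and 0.032.

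Per kb of exon, the ligand was the most abundant of the 3 in every sample, followed by *Ackr3* and then *Cxcr4*. *Cxcl12* had 75.4 and 84.1 CPM per kb (GCE/+) against 57.8 and 58.7 CPM per kb (GCE/GCE). *Ackr3* had 30.3 and 27.7 CPM per kb (GCE/+) against 28.6 and 28.2 CPM per kb (GCE/GCE). *Cxcr4* had 4.89 and 5.18 CPM per kb (GCE/+) against 4.63 and 3.16 CPM per kb (GCE/GCE). The 3 ranges did not touch. *Cxcl12* exceeded 93.8% to 96.2% of the 15471 genes with a length, *Ackr3* 84.3% to 85.8% and *Cxcr4* 37.7% to 46.0%.

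The ratio of ligand to scavenging receptor, taken within a sample and thus free of library scaling, was 2.48 and 3.04 (GCE/+) against 2.02 and 2.08 (GCE/GCE). The genotypes did not overlap, and GCE/GCE had the lower ratios. With *Ackr3* at a log2 fold change of -0.03, this mainly restates the lower *Cxcl12*. For single genes, separation with GCE/GCE lower held for 19.1% of all genes tested. The ratio of *Cxcl12* to *Cxcr4* was 15.4 and 16.2 (GCE/+) against 12.5 and 18.6 (GCE/GCE), so here the GCE/+ samples lay between the GCE/GCE samples. That of *Ackr3* to *Cxcr4* was 6.21 and 5.34 (GCE/+) against 6.18 and 8.92 (GCE/GCE), where the groups overlapped. These ratios rest on exon lengths from GENCODE M21 (GRCm38, whereas the reads were mapped to mm9) of 7160, 1808 and 3348 bases for *Cxcl12*, *Cxcr4* and *Ackr3*. The annotation holds 3 protein-coding transcripts of *Cxcl12*, of 5627, 3132 and 1878 bases, and 1 count per gene cannot tell them apart.

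Among chemokine ligands that passed the filter, 25 with *Cxcl12* included, *Cxcl12* ranked 1 to 3 by CPM per kb in the 4 samples and made up 14.8% to 18.0% of the family's sum. *Ccl2*, a ligand that attracts monocytes, and *Cxcl14* were at a similar level, with mean levels of 79.4 and 75.7 CPM per kb in GCE/+ cells against 79.7 for *Cxcl12*. Divided by the longest transcript in place of all exons, *Cxcl12* ranked 1 in both GCE/+ samples and 2 in both GCE/GCE samples. Of the 39 other ligands listed, 24 were tested and 9 were lower in GCE/GCE cells, beside 0.927% of all genes, with a median log2 fold change of -0.77 over the 24 and 0.00 over all genes. *Ccl2* fell by 0.88 (SE 0.08), *Ccl4*, a macrophage inflammatory protein, by 1.03 (SE 0.11) and *Cxcl13*, a B cell attractant, by 1.58 (SE 0.25) on the log2 scale. All 9 had a larger fall than *Cxcl12*, as had nearly all of the 145 lower genes, among which *Cxcl12* ranked 143 by size of the log2 fold change. The smallest fall of the 9 was that of *Cxcl2* with 0.84 (SE 0.10). *Cxcl14* had a log2 fold change of 0.14 (SE 0.13).

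Among the 12 chemokine receptors tested, *Ackr3* was the first by CPM per kb in every sample, with 54.9% to 70.3% of the sum, and *Cxcr4* was the third. *Cx3cr1*, the fractalkine receptor of macrophages, was the second with 8.68 CPM per kb in GCE/+ cells. It was among the 3 of the other 10 receptors that were lower in GCE/GCE cells, beside 0.927% of all genes. The others were *Ccr1* and *Ccrl2*.

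**Figure D3:**
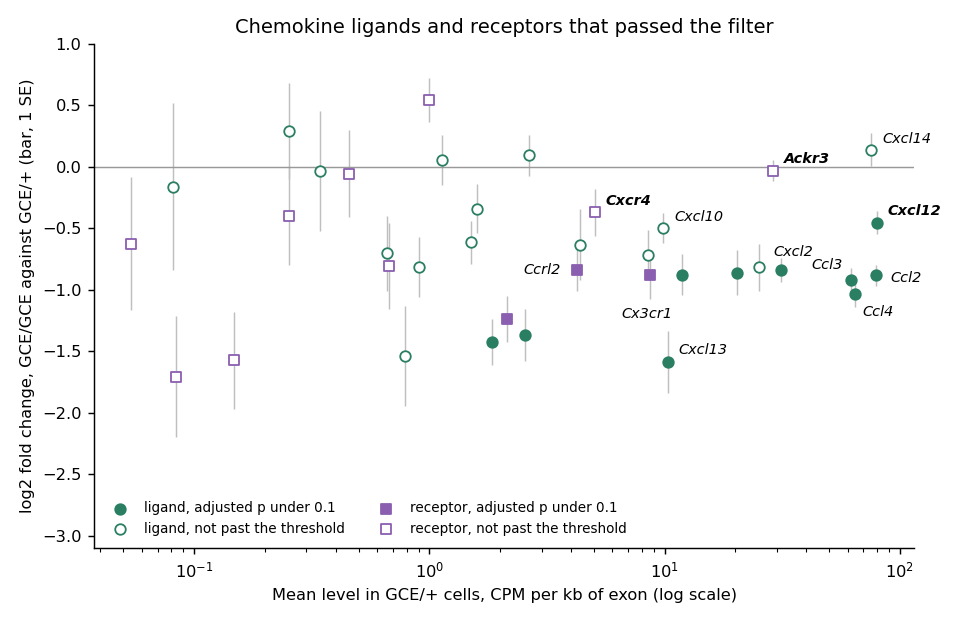
Mean level in GCE/+ cells (CPM per kb of exon, log axis) against log2 fold change (bar, 1 SE) for the chemokine ligands and receptors that passed the filter. *Cxcl12* lies at the right edge with 79.7 CPM per kb and a log2 fold change of -0.45, above the 9 other ligands past the threshold, and *Ackr3* lies near 0.

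Markers of some other cell types differed between the genotypes. In sorted bulk samples fewer cells of a type and less RNA per cell cannot be told apart. Macrophage markers were lower in GCE/GCE cells, with 14 of 19 tested past the threshold beside 0.927% of all genes. Their median log2 fold change was -0.97. Their summed level was 462 and 477 CPM (GCE/+) against 292 and 203 CPM (GCE/GCE), or 62.2% and 43.1% of the GCE/+ mean. *Cxcr4*, which macrophages also express, was at 92.0% and 62.8% of its GCE/+ mean in the same samples. Replicate 2 was the lower GCE/GCE sample for *Cxcr4* and for every summed cell type list but cartilage, so this order was not particular to macrophages. *Cxcl12* stood at 72.5% and 73.6%, near the same level in both GCE/GCE samples.

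Of 15 endothelial markers tested, none was past the threshold in edgeR's test. An unadjusted p under 0.05 was found for 9, beside 10.5% of all genes, *Erg* being the only positive value among these. In DESeq2, 2 (*Tie1* and *Plvap*) passed, beside 3.25% of the genes it tested. The median log2 fold change of the 15 markers was -0.47. Relative to the GCE/+ mean, their summed level was 110% and 90.0% (GCE/+) against 89.4% and 77.0% (GCE/GCE). The 12 myogenic markers summed to 167 and 184 CPM (GCE/+) against 214 and 182 CPM (GCE/GCE), and *Myod1* and *Myog* were present in all samples, at 8.15 to 9.77 and 24.1 to 27.6 CPM. The mesenchymal list, which includes *Osr1*, summed to 92.3% and 81.3% of the GCE/+ mean in GCE/GCE cells. *Col3a1*, *Col1a2* and *Col1a1* had the highest CPM in this sum, with log2 fold changes of -0.33, -0.12 and -0.16. *Pdgfra*, *Prrx1* and *Vim* had 0.05, -0.01 and -0.07. Over the list, 4 values were positive and 9 negative. Of its 13 genes *Osr1* passed in edgeR, and *Osr1*, *Col3a1* and *Tbx4* in DESeq2, beside 1.82% and 3.25% of the genes tested. Cartilage markers were higher, with 7 of 16 past the threshold beside 0.895% of all genes. Their median log2 fold change was 0.89. No marker of these lists was at 0 in all samples. The part of these cell types in the values of *Cxcl12*, *Cxcr4* and *Ackr3* was not tested.

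**Figure D4:**
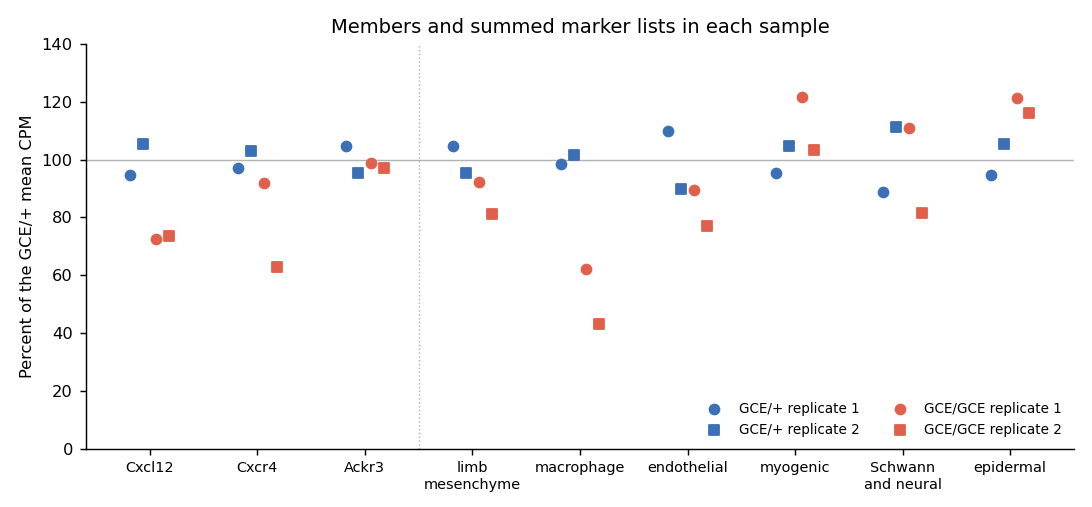
Each member and the summed CPM of marker lists in every sample, as a percent of the GCE/+ mean. Macrophage markers were at 62.2% and 43.1% in GCE/GCE replicates 1 and 2, *Cxcr4* at 92.0% and 62.8%, and *Cxcl12* at 72.5% and 73.6%.

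A list of 67 further genes of the Cxcl12 pathway, chosen by role, had 64 genes tested. Of these, 2 were higher and 1 was lower in GCE/GCE cells, beside 1.82% of all genes in either direction, with a median log2 fold change of -0.04. DESeq2 passed 7, beside 3.25% of the genes it tested. Among the other ligands of these receptors, *Mif*, a cytokine that also binds Cxcr4, had 105.6 and 77.9 CPM (GCE/+) against 93.2 and 102.4 CPM (GCE/GCE). *Adm*, encoding adrenomedullin, which Ackr3 scavenges, had 4.12 and 3.54 CPM (GCE/+) against 2.91 and 3.01 CPM (GCE/GCE), with a log2 fold change of -0.37 (SE 0.18) that did not pass. *Cxcl11*, the other chemokine that Ackr3 binds, had at most 0.115 CPM and was not tested.

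Cxcl12 is held near the cells that release it by heparan sulphate, which syndecans carry. *Sdc2* had 103.9 and 94.5 CPM (GCE/+) against 144 and 149 CPM (GCE/GCE), and so rose by 0.56 on the log2 scale (SE 0.08, Benjamini-Hochberg adjusted p = 0.0324 by edgeR). *Sdc4* had 42.0 and 37.01 CPM (GCE/+) against 29.6 and 28.5 CPM (GCE/GCE), with a log2 fold change of -0.44 (SE 0.10) that missed the threshold (Benjamini-Hochberg adjusted p = 0.103 by edgeR and 0.0227 by DESeq2). The samples of the genotypes did not overlap for either syndecan, and they lay in opposite order. Such separation held for 19.2% of all genes with GCE/GCE higher and 19.1% with GCE/GCE lower. *Sdc1* and *Sdc3* had log2 fold changes of -0.05 and 0.05. The proteases that can cleave Cxcl12 varied as little, with -0.05 for *Mmp2* and 0.08 for *Mmp14*, and *Dpp4* was low at 2.26 to 3.67 CPM.

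Of the 10 genes that regulate the receptors, none passed the threshold in edgeR's test or in DESeq2, and 2 had an unadjusted p under 0.05, a count too small to set apart from the 10.5% of all genes. These were *Rgs1*, which damps G protein signals in leukocytes, with a log2 fold change of -0.96 (SE 0.31), and *Cd74*, the Mif receptor of antigen-presenting cells, with -0.78 (SE 0.32). The arrestin genes *Arrb1* and *Arrb2* had values of -0.04 and -0.24. Of the 36 genes that relay the signal, *Rac2*, a Rac GTPase of blood cells, was the only one past the threshold, beside 1.82% of all genes in either direction. *Rac2* had 11.4 and 10.7 CPM (GCE/+) against 6.20 and 4.21 CPM (GCE/GCE), and so fell by 1.09 on the log2 scale (SE 0.19, Benjamini-Hochberg adjusted p = 0.0495 by edgeR). DESeq2 passed 4 of the 36, beside 3.25% of the genes it tested. *Vav1*, *Pik3cg* and *Dock2*, best known from blood cells, had log2 fold changes of -0.88, -0.80 and -0.80, which passed in DESeq2 but not in edgeR. The macrophage markers were lower in the same samples, and their part in these values was not tested. The widely expressed *Rac1*, *Gnai2* and *Gab1* had values of 0.02, -0.12 and 0.05.

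Foxc1, Ebf1 and Ebf3 are transcription factors of Cxcl12-rich stromal cells in bone marrow, and Hif1a raises *Cxcl12* under low oxygen. *Foxc1* had 15.8 and 16.8 CPM (GCE/+) against 26.1 and 28.9 CPM (GCE/GCE), and so rose by 0.76 (SE 0.11, Benjamini-Hochberg adjusted p = 0.03 by edgeR), opposite in direction to *Cxcl12*. *Ebf3* had 510 to 615 CPM over the 4 samples, with a log2 fold change of 0.16 (SE 0.10). *Ebf1* and *Hif1a* had -0.11 and 0.18.

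**Figure D5:**
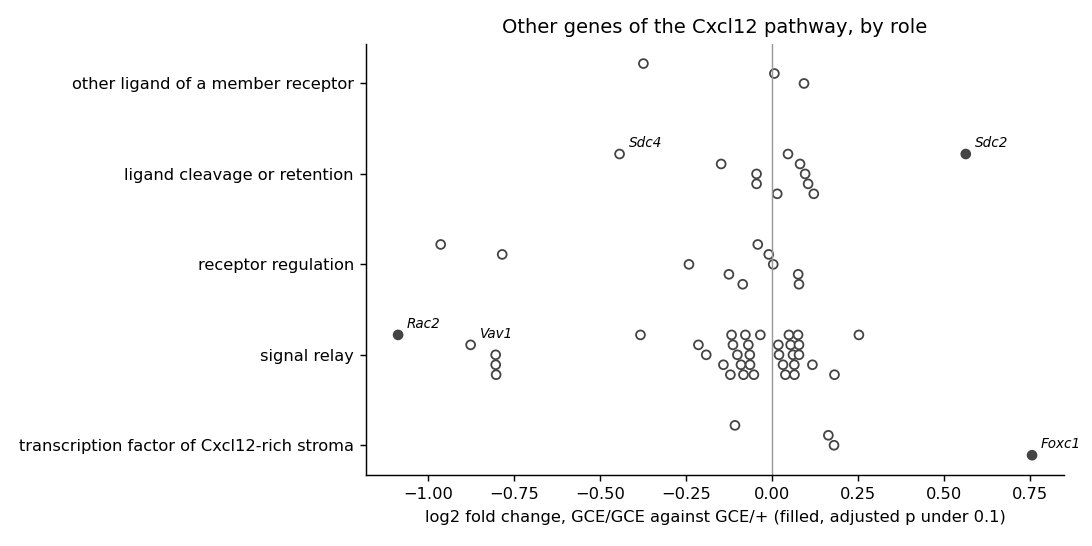
Log2 fold change of the 64 tested genes of the Cxcl12 pathway by role, with filled points at an adjusted p under 0.1. *Sdc2* and *Foxc1* lie at the right with 0.56 and 0.76 and *Rac2* at the left with -1.09, while most genes lie close to 0.

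Profiles over the 4 samples were compared by the Euclidean distance between log2 CPM values centred on the mean of each gene, over 13468 genes. The 5 genes nearest to *Cxcl12* were *Slc8a2* (0.04), *Pik3cd* (0.07), *Cxcl10* (0.07), *Irak2* (0.07) and *Scg2* (0.08), and 13 genes lay within 0.1. *Cxcl10*, an interferon-induced chemokine, had 14.5 and 15.5 CPM (GCE/+) against 10.8 and 10.5 CPM (GCE/GCE). Among the genes nearest to *Cxcr4* were *Pon3* (0.06) and *Col14a1* (0.07), the latter with 259 and 258 CPM (GCE/+) against 236 and 163 CPM (GCE/GCE). Nearest to *Ackr3* were *BC048403* (0.01), *Rnf220* (0.01) and *Rabl5* (0.01), but 1634 genes lay within 0.1 of it, since its profile was almost flat. With 4 samples such likeness is a description only.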

How the data were processed

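RNA-Seq was performed on FACS-sorted GFP+ cells from the limbs of 2 GCE/+ and 2 GCE/GCE embryos. Paired-end reads had been aligned by the authors to the mm9 genome (TopHat2, guided by the UCSC gene model; versions not given in the sources used here), and HTSeq had counted fragments for each gene under the intersection-strict rule, which drops fragments that reach outside the exons of a gene or overlap more than 1 gene. The deposited values are these raw counts, 1 per gene symbol, without normalization. The library kit does not mark strand.

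Group and replicate number came from the sample labels. Genes were filtered with filterByExpr, given TMM factors and compared by the two-sided quasi-likelihood test of edgeR 4.0.16 in R 4.3.3, with Benjamini-Hochberg adjustment over 15645 genes. SEs were derived from the F statistic and intervals are 95% (total degrees of freedom 8.381). DESeq2 1.42.0, which the study used, was an alternative. The procedure was tested on simulated data. Exon lengths came from GENCODE M21 (GRCm38), which matched 97.9% of symbols, and counting intervals from the exact Poisson method in scipy 1.17.1. Figures were drawn with matplotlib 3.10.9.

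The members and gene lists were chosen with earlier results of these data known. Named genes were the members, *Osr1* and *Xist*, list genes past the threshold or with the lowest p in the pathway list, and genes with the nearest profiles over the 4 samples (log2(CPM + 0.5), mean of at least 1 CPM). Alternatives were other normalizations and filters, a robust fit, the replicate number as a block, offsets for transcript length, a threshold of 0.05 and leaving out each sample. The earlier form of the quasi-likelihood fit was added after seeing the data. Other assays of the study were not used here. Some genes that the naming rule selects are not reported here.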

Additional observations from a re-analysis of the deposited data

How the results depend on the processing

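*Osr1* kept its direction and its call in all 15 alternatives, with log2 fold changes from -2.76 to -2.54. *Cxcl12* was negative in all 15 and past the threshold in 10. It was not past it with no filter on low counts (-0.46, adjusted p = 0.141), at a threshold of 0.05 (-0.45), with the replicate number as a block, or without either GCE/GCE sample. Leaving out each sample gave -0.54 to -0.37 for *Cxcl12*, -0.68 to -0.12 for *Cxcr4*, and -0.095 to 0.032 for *Ackr3*, positive only without GCE/+ replicate 1. In these fits the lone sample of a group was assumed to vary like the other group. With offsets for transcript length, *Cxcl12* had -0.53 (SE 0.06, Benjamini-Hochberg adjusted p = 0.0243 by edgeR). Adjusted p-values of *Cxcl12* ran from 0.000738 (DESeq2) to 0.172 (edgeR), both after Benjamini-Hochberg.

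With the replicate number as a block, *Cxcl12* had -0.45 (Benjamini-Hochberg adjusted p = 0.112 by edgeR), *Cxcr4* -0.39, *Ackr3* -0.03 and *Osr1* -2.64, with 290 genes, 3 pathway genes and 10 other ligands past the threshold. The deviations of same-numbered samples had a correlation of 0.005 across 13469 genes, which gives no sign of pairing in the data, and the sources used here do not say whether same-numbered embryos shared a litter or day.

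The number of genes past the threshold was 285, and it was 502 in DESeq2, 127 with no filter on low counts, 130 at a threshold of 0.05, and 199 to 961 without each sample, the highest without GCE/+ replicate 2 and 748 without GCE/GCE replicate 1. The 3 pathway genes became 7 in DESeq2, 5 in the robust fit, 5 with transcript length offsets, and 2 to 10 without each sample, the highest without GCE/GCE replicate 1 and 6 without GCE/+ replicate 2. The other chemokine ligands stayed between 7 and 12. No scaling moved the median of all genes by more than 0.02 on the log2 scale. Why these counts differ was not tested. *Cxcr4* had the fewest counts of the 3 members, 350 to 538. Its SE of 0.19 compares with a median SE of 0.15 among genes of similar level, and the part of depth in this SE was not tested.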
